A study of Homo sapiens with 11 samples.

Results

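The genes described here are HSPA5, which encodes the endoplasmic reticulum (ER) chaperone GRP78 (also called BiP), and 9 further ER chaperones and stress factors of the unfolded protein response. The 10 genes were listed by name (HSPA5, HSP90B1, DNAJB9, HERPUD1, XBP1, ATF4, DDIT3, CALR, CANX and PDIA4), and all 10 were found among the 25590 human genes counted. GRP78 is, besides LRP1, a reported cell surface receptor of A2M*, the transformed form of alpha-2-macroglobulin. RNA sequencing covered 11 tumours of PC-3, a human prostate carcinoma cell line, grown under the skin of male athymic nude mice (Crl:NU-Foxn1nu) that were 8 weeks old at engraftment. From day 7 until day 31, mice received intraperitoneal injections of either 5.6 mg A2M* for every 20 g of body weight (6 tumours, labelled A2M) or PBS as control (5 tumours), with 1 library per tumour. All groups thus share 1 cell line and a host that lacks mature T cells.

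Misfolded proteins in the ER release the chaperone GRP78 from the sensors in its membrane, which sets off the unfolded protein response. IRE1 (gene ERN1) splices the RNA of the transcription factor XBP1, PERK (EIF2AK3) phosphorylates eIF2 alpha and so raises translation of ATF4 and of its target CHOP (DDIT3), and ATF6 is cut by proteases in the Golgi to release a transcription factor. These factors raise the RNA of chaperones such as GRP78 itself and of genes of ER-associated degradation (ERAD). Gene counts measure the amount of RNA and do not show splicing of XBP1, phosphorylation, cleavage of ATF6 or GRP78 at the cell surface. In bulk tumours, fewer cells of a type and less RNA per cell cannot be told apart.

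The RNA of several of these genes is controlled through the ER stress response element, ERSE, with the letters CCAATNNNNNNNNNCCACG, where N is any base. Its letters were searched on both strands of the 250 bases before each gene's start in RefSeq (GRCh38.p14). They were found in 5 of the 10 genes, against 0.0806% of 27305 human promoters of the same length (22 promoters). Among the other genes of the pathway that had an entry, 2 of 54 held it, CRELD2 and ERO1LB. The whole upstream region is shown for HSPA5, the gene of GRP78 itself, and for HERPUD1, which lacks the full ERSE and instead holds the related element ERSE-II, with the letters ATTGGNCCACG. Capitals mark the fixed letters of ERSE in HSPA5 (chr9:125241344-125241593, minus strand) and of ERSE-II in HERPUD1 (chr16:56931892-56932141, plus strand).
HSPA5: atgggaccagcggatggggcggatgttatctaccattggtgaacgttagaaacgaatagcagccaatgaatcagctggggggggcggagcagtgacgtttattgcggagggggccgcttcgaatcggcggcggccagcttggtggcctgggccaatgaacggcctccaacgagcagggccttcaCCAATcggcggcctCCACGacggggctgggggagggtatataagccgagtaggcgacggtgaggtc
HERPUD1: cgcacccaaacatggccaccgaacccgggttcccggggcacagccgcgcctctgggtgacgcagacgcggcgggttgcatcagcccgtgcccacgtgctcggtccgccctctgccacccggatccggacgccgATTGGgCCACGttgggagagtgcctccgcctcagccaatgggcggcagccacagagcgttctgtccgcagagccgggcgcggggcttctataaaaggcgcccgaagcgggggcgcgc
The ERSE of HSPA5 lay 66 to 48 bases before the start, and the ERSE-II of HERPUD1 lay 117 to 107 bases before it. The letters of ERSE-II stood in 0.0513% of all promoters (14). Of the other 54 pathway genes 2 held them, HYOU1 and SDF2L1. In the other 4 genes the ERSE lay 194 to 176 bases (site 1) and 89 to 71 bases (site 2) before the start of HSP90B1, 52 to 34 bases before that of XBP1, 225 to 207 bases before that of CALR and 151 to 133 bases before that of CANX. The sites are shown because they are the sequence these genes share, in the direction of the gene, so that site 2 of HSP90B1 and the site of CALR read as the reverse complement. Capitals again mark the fixed letters.
HSP90B1 site 1: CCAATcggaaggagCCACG
HSP90B1 site 2: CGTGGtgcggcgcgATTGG
XBP1 site: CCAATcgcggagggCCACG
CALR site: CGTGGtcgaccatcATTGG
CANX site: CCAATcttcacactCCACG
With the last letter left open (CCAATNNNNNNNNNCCACN, which contains every ERSE), HERPUD1 and DDIT3 were added, giving 7 of the 10 genes against 0.289% of all promoters. The C/EBP-ATF composite element TGATGNAA was found in HERPUD1, against 3.19% of all promoters. The letters TGACGTGG of the UPR element were in none of the 10 windows (0 of 10, against 0.667% of all promoters). Because several of these genes were already known to be controlled through such elements, the shares above describe them and are no independent test. A match of letters is a description of the sequence and no measurement of binding.

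The authors counted human-specific reads per gene, and the totals of the tumours lay between 16958533 and 35874381 counts. The epithelial markers KRT8, KRT18, KRT19, EPCAM and CDH1 summed to between 2116 and 2599 RPM (each count divided by the total of its tumour and scaled) in PBS tumours and between 1734 and 2542 RPM in A2M* tumours. KLK3 (prostate-specific antigen) had 0 counts in every tumour and KLK2 at most 1. The 14 stroma and immune markers summed to between 373.1 and 718.9 RPM in PBS tumours and between 370.8 and 976.5 RPM in A2M* tumours. Most of it was COL1A1, without which the sums lay between 64.8 and 96.6 RPM in PBS and between 58.9 and 103.7 RPM in A2M* tumours. CD3E, DCN and LUM had at most 5 counts. These are human reads, and the mouse reads were not analysed here. RPKM, which divides by exon length, was used to compare levels between genes. CPM was used to compare tumours. It scales each count by its tumour's total after TMM normalisation and does not divide by exon length. The quasi-likelihood test of edgeR was run over the 16630 genes that passed the filter on low counts. All 10 genes passed it, with between 581 counts (DDIT3) and 72754 counts (CALR) in a tumour.

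All 10 genes were transcribed in every tumour, in much the same order of level. CALR, a lectin chaperone of the ER lumen, had the highest median level over the 11 tumours with 1061 RPKM, rank 31 among all genes. It was followed by HSP90B1 (GRP94, the HSP90 of the ER) with a median of 640.2 RPKM and by HSPA5 with a median of 362.7 RPKM. CALR stood above HSP90B1, and HSP90B1 above HSPA5, in each of the 11 tumours. PDIA4, a protein disulphide isomerase, and the transcription factor ATF4 had median levels of 165.4 and 161.2 RPKM. They could not be ordered, since PDIA4 was above ATF4 in 5 of the 11 tumours. The membrane-bound lectin chaperone CANX (116.3 RPKM) and XBP1 (68.8 RPKM) came next, each above the following gene in all 11 tumours. The lowest median levels were those of HERPUD1, an ERAD membrane protein (50.7 RPKM), DDIT3 (27.6 RPKM) and DNAJB9, an ER co-chaperone (20.9 RPKM). DDIT3 was above DNAJB9 in 10 of 11 tumours. The range of DDIT3, from 22.6 to 36.3 RPKM, overlapped that of DNAJB9, from 17.6 to 32.3 RPKM.

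On GRCh37, HSP90B1 lies at chromosome 12, 104323885 to 104347709, DNAJB9 at chromosome 7, 108210311 to 108215294, and HERPUD1 at chromosome 16, 56966054 to 56978776, all on the plus strand. CALR (chromosome 19, 13049392 to 13055303), CANX (chromosome 5, 179105629 to 179158642) and ATF4 (chromosome 22, 39915700 to 39918688) are on the plus strand too. XBP1 (chromosome 22, 29190543 to 29196585), DDIT3 (chromosome 12, 57910371 to 57915520) and PDIA4 (chromosome 7, 148700154 to 148725754) are on the minus strand. All are protein-coding, and annotated exons of other genes overlap those of HSP90B1, CALR, CANX and DDIT3, whose counts may therefore include or lose reads.

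**Figure D1:**
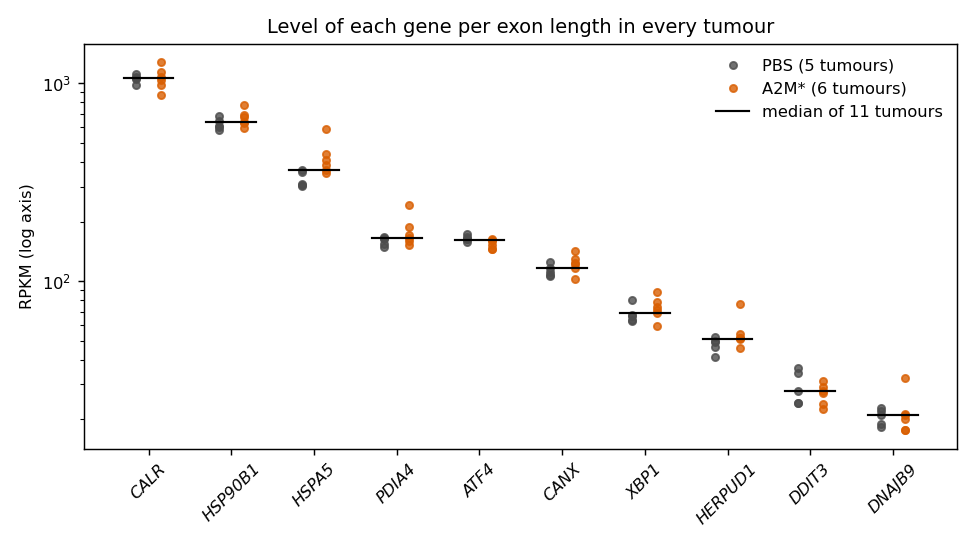
RPKM on a log axis for each gene (x axis, ordered by median), with 1 point per PBS (grey) or A2M* (orange) tumour and a black line at the median of the 11 tumours. CALR lies highest with a median of 1061 RPKM and DNAJB9 lowest with 20.9 RPKM, and PDIA4 and ATF4 overlap.

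None of the 10 genes passed the threshold of 0.01 on the adjusted p between A2M* and PBS tumours (edgeR, 0 of 10 genes), as was the case for all genes tested (0%). DESeq2 (0.00601% of all genes), limma-voom and 2 other tests of edgeR, the exact test and the likelihood ratio test, also called 0 of the 10. At an unadjusted p under 0.05, 2 of the 10 were counted, HSPA5 with the higher level in A2M* tumours and ATF4 with the lower, against 7.08% of all genes tested (3.55% higher and 3.53% lower). HSPA5 stayed under 0.05 in every fit that left out 1 tumour. ATF4 did not in 7 of these 11 fits, nor with the exact test, the likelihood ratio test, upper quartile factors, library size alone, no filter or limma on RPKM, where 1 of the 10 was counted. Of the 10 log2 fold changes 7 were above 0 and 3 below (above 0 in 49.4% of all genes), with a median of 0.06 against -0.0021 over all genes. The CPM ranges of the 2 groups overlapped for each of the 10 genes, and for all but 0.71% of the genes tested.

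HSPA5 had the largest difference of the 10, 1.25-fold higher in A2M* tumours, but its adjusted p did not pass. In the PBS tumours it measured 1222, 1482, 1245, 1432 and 1235 CPM (PC3_tumor_123 to PC3_tumor_127). In the A2M* tumours the lowest value was 1369, the median 1559 and the highest 2269 CPM, in PC3_tumor_131. All 6 A2M* tumours lay above the PBS median and 4 of them above every PBS tumour, while the remaining 2 lay within the PBS range. The means were 1323 ± 123.6 CPM (SD, n = 5) in PBS and 1658 ± 324 CPM (SD, n = 6) in A2M* tumours. The log2 fold change was 0.33 (SE 0.121, 95% interval 0.07 to 0.58), with an unadjusted p of 0.0179 and an adjusted p of 0.642 (edgeR). Over the other normalisations, filters and tests, the adjusted p lay between 0.423 and 0.746. As a single value, the difference of 0.31 in mean log2 CPM had p = 0.0303 (two-sided exact permutation test across every labeling of the 11 tumours, smallest possible p 0.0022). Without A2M* tumour PC3_tumor_131 the edgeR log2 fold change was 0.22, and the difference in mean log2 CPM was 0.21 (exact permutation test, p = 0.0476). Leaving out PBS tumour PC3_tumor_123, PC3_tumor_125 or PC3_tumor_127 gave p = 0.0714 in each case (exact permutation test). PC3_tumor_131 also had the lowest sum of epithelial markers (1734 RPM). Its sum of stroma and immune markers was the 2nd highest (849.3 RPM, most of it COL1A1). The part of either sum in its HSPA5 level was not tested. HSPA5 lies at chromosome 9, 127997132 to 128003661 on the minus strand (GRCh37), where no other annotated exon overlaps it.

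HSPA8, the constitutive HSP70 of the cytosol, was set beside HSPA5 within each tumour. HSPA8 measured 1090 ± 131.1 CPM (SD, n = 5) in PBS and 1604 ± 309 CPM (SD, n = 6) in A2M* tumours, without overlap, with a log2 fold change of 0.56 (SE 0.13, edgeR adjusted p = 0.599). Over the other normalisations, filters and tests, the adjusted p of HSPA8 lay between 0.0449 and 0.736. With the quasi-likelihood test of edgeR no gene had a smaller adjusted p. The difference of HSPA8 was larger than that of HSPA5, so the ratio of the 2 genes does not have a steady denominator. The ratio of HSPA5 to HSPA8 in CPM was 1.00, 1.29, 1.41, 1.25 and 1.17 in the PBS tumours. In the A2M* tumours it lay between 0.879 (PC3_tumor_128) and 1.16 (PC3_tumor_112). The log2 ratio was thus lower by a mean of 0.23 in A2M* tumours (A2M* minus PBS -0.23, two-sided exact permutation test, p = 0.0498). In 8 of the 11 fits that left out 1 tumour its p was above 0.05, and p ranged from 0.00952 to 0.105 (exact permutation tests). The p of neither single-value test was adjusted over other genes.

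**Figure D2:**
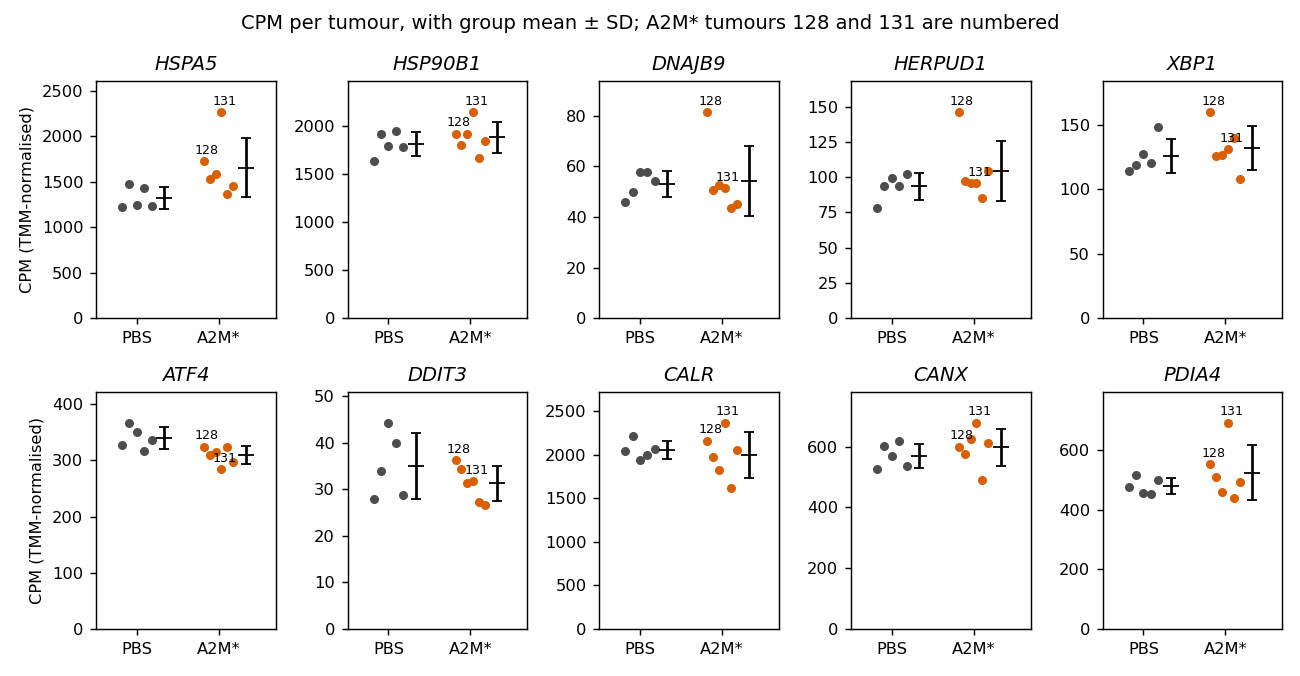
CPM (y axis, from 0) of each gene in the 5 PBS (grey) and 6 A2M* (orange) tumours, 1 point per tumour, with bars at the group mean ± SD. HSPA5 reaches 2269 CPM in A2M* tumour PC3_tumor_131, and DNAJB9 and HERPUD1 stand out in A2M* tumour PC3_tumor_128 with 81.4 and 146.3 CPM.

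ATF4, which drives amino acid and stress genes below PERK, had the lower mean in A2M* tumours. Its PBS tumours measured 326.7, 367.2, 349.9, 316.5 and 337.0 CPM. The A2M* tumours lay between 284.9 and 324.7 CPM with a median of 312.3 CPM. No A2M* tumour was above the PBS median, and 4 of the 6 lay below every PBS tumour. The log2 fold change was -0.13 (SE 0.062), with means of 339.5 ± 19.8 CPM (SD, n = 5) and 309.2 ± 15.8 CPM (SD, n = 6) and an edgeR adjusted p of 0.699. Its unadjusted p was 0.0476 in edgeR, 0.146 with library size alone and 0.132 without PBS tumour PC3_tumor_124. ATF4 was also the gene of least spread, with a highest value 1.29 times the lowest over the 11 tumours. DDIT3, whose product CHOP promotes cell death in prolonged ER stress, measured 28.0, 34.0, 44.4, 40.1 and 28.9 CPM in the PBS tumours. Its A2M* tumours lay between 26.7 and 36.4 CPM with a median of 31.6 CPM, so that the groups overlapped. Its log2 fold change was -0.16 (SE 0.125, edgeR adjusted p = 0.849), and -0.06 without PBS tumour PC3_tumor_125. Exons of MARS1 and MBD6 overlap DDIT3 on the other strand, and the strand setting of the counting is not given in the sources used here, so reads of these genes cannot be told apart there.

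The targets DNAJB9 and HERPUD1 stood out in 1 tumour rather than in a group. DNAJB9 measured 45.9, 49.95, 57.8, 57.7 and 54.1 CPM in the PBS tumours. In A2M* tumour PC3_tumor_128 it reached 81.4 CPM, while the other 5 A2M* tumours lay between 43.6 and 52.7 CPM. PC3_tumor_128 was thus alone above the PBS range, and the group means of 53.1 ± 5.15 CPM (SD, n = 5) and 54.2 ± 13.9 CPM (SD, n = 6) were close. The log2 fold change of DNAJB9 was 0.03 (SE 0.141, 95% interval -0.27 to 0.33), and -0.12 without PC3_tumor_128. HERPUD1 measured 78.2, 93.6, 99.3, 94.0 and 102.5 CPM in the PBS tumours. It reached 146.3 CPM in A2M* tumour PC3_tumor_128, and the other 5 of that group lay between 85.5 and 104.4 CPM. Its log2 fold change was 0.16 (SE 0.121, edgeR adjusted p = 0.849), and 0.04 without that tumour. XBP1 was also highest in PC3_tumor_128, with 159.8 CPM, while its other values spanned 108.3 to 139.7 CPM in A2M* and 114.4 to 148.0 CPM in PBS tumours. Its log2 fold change was 0.07 (SE 0.0951, edgeR adjusted p = 0.920), and 0.0066 without PC3_tumor_128 and 0.14 without PBS tumour PC3_tumor_127.

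The remaining chaperones and the disulphide isomerase did not separate the groups. HSP90B1 measured 1816 ± 123.9 CPM (SD, n = 5) in PBS and 1884 ± 160 CPM (SD, n = 6) in A2M* tumours, with a log2 fold change of 0.05 (95% interval -0.12 to 0.22). CALR measured 2054 ± 102 and 2002 ± 262 CPM, with a log2 fold change of -0.04 (95% interval -0.24 to 0.16), and its sign depended on the scaling, at 0.0069 with library size alone. CANX, the membrane-bound partner of CALR in glycoprotein folding, measured 569.7 ± 40.0 and 597.3 ± 62.1 CPM, with a log2 fold change of 0.07 (95% interval -0.11 to 0.25). PDIA4 had a log2 fold change of 0.13 (95% interval -0.10 to 0.35), with 437.8 to 691.1 CPM in A2M* tumours, where PC3_tumor_131 was highest, and 452.4 to 516.5 CPM in PBS tumours. The edgeR adjusted p of these 4 genes lay between 0.864 (PDIA4) and 0.964 (CALR). Without A2M* tumour PC3_tumor_131 the log2 fold change was 0.03 for PDIA4, 0.03 for CANX and 0.01 for HSP90B1.

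**Figure D3:**
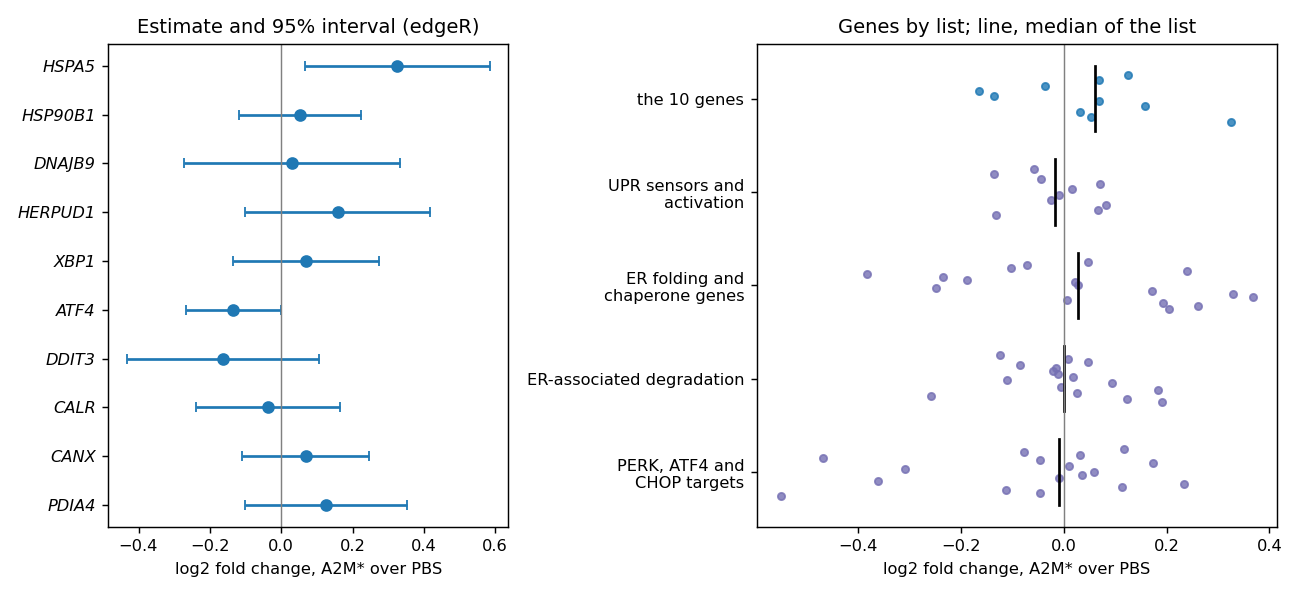
Log2 fold change of A2M* over PBS tumours (x axis). Left, the 10 genes with their 95% intervals from edgeR, of which that of HSPA5 spans 0.07 to 0.58. Right, the 10 genes and the pathway genes as points by list with the median of each list as a line, the medians lying between -0.017 and 0.06.

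The 60 tested genes of the rest of the pathway were described in 4 lists, and none passed the adjusted threshold (edgeR, 0 of 60). At an unadjusted p under 0.05, 5 were higher and 5 lower (16.7% of the 60, against 7.08% of all genes tested). This count of 10 depended on which tumours were included, as did the share over all genes. It was 2 without PBS tumour PC3_tumor_125 (3.33%, against 4.09% of all genes) and 5 without A2M* tumour PC3_tumor_131 (8.33%, against 4.61%). It was 6 without PBS tumour PC3_tumor_124 (10%, against 5.24%) and 6 without A2M* tumour PC3_tumor_128 (10%, against 7.04%). Without any other 1 tumour it lay between 8 and 11 (13.3% to 18.3%, against 6.16% to 10.1% of all genes). The 10 genes of sensors and activation held none of them, with a median log2 fold change of -0.017. In this list the sensor genes ERN1 (-0.13, SE 0.114) and ATF6 (0.08, SE 0.0769) and EIF2S1, the target of PERK (0.07, SE 0.082), had small log2 fold changes. MBTPS1, the protease that cuts ATF6 in the Golgi, had the smallest of those named, at -0.0088, and its sign depended on the scaling (0.036 with library size alone). WFS1, an ER membrane protein, measured 83.1 ± 11.2 CPM in PBS and 75.7 ± 7.32 CPM in A2M* tumours.

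The folding and chaperone list of 17 genes held 7 of the 10 genes at an unadjusted p under 0.05, 4 with higher and 3 with lower values in A2M* tumours (41.2% of the list, against 7.08% of all genes tested). Without 1 tumour the list held between 2 and 8 such genes. It held 2 without PC3_tumor_125 (11.8%, against 4.09% of all genes) and 8 without PC3_tumor_112 (47.1%, against 8.13%). It held 3 without PC3_tumor_124 or PC3_tumor_131 (17.6%, against 5.24% and 4.61% of all genes). With PC3_tumor_123 or PC3_tumor_128 left out it held 4 (23.5%, against 6.78% and 7.04% of all genes). DNAJB11, a co-chaperone of GRP78, measured 112.9 to 125.2 CPM in PBS and 121.4 to 177.8 CPM in A2M* tumours, with a log2 fold change of 0.26 (SE 0.0915, edgeR adjusted p = 0.640). MANF, a secreted ER stress protein that binds GRP78, measured 147.9 ± 12.7 CPM (SD, n = 5) and 185.7 ± 33.0 CPM (SD, n = 6), with a log2 fold change of 0.33 (SE 0.111, edgeR adjusted p = 0.640). The other 2 with higher values, the co-chaperone DNAJC3 (0.19) and the oxidase ERO1LB (0.24), and SIL1 (-0.25), the nucleotide exchange factor of GRP78, were named after their log2 fold changes had been seen. The oxidase gene ERO1L, which recharges disulphide isomerases, had a log2 fold change of -0.38 (SE 0.155, edgeR adjusted p = 0.648), and the disulphide isomerase P4HB one of -0.19 (SE 0.0822, edgeR adjusted p = 0.697). The isomerase PDIA3 measured 806.2 ± 57.8 and 821.4 ± 66.7 CPM. The log2 fold changes of the list lay on both sides of 0, with a median of 0.03.

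In the ERAD list 16 of 17 genes were tested, as DERL3 had at most 6 counts in a tumour. EDEM1, which directs misfolded glycoproteins to degradation, had a log2 fold change of -0.26 (SE 0.0985, edgeR adjusted p = 0.643). It was the only one of the list at an unadjusted p under 0.05 (6.25%, against 7.08% of all genes tested). EDEM3 (0.18, SE 0.0906) and SEL1L (0.19, SE 0.094), the scaffold of the HRD1 ligase, had log2 fold changes in the other direction. OS9, a lectin of the same complex, measured 492.3 ± 35.6 and 456.4 ± 22.0 CPM, and the segregase VCP 374.9 ± 27.7 and 387.2 ± 44.2 CPM in PBS and A2M* tumours. The list's median was 0.0014. Among the 17 targets of PERK, ATF4 and CHOP, the median was -0.0083. At an unadjusted p under 0.05, 1 gene was higher and 1 lower, ASNS and STC2 (11.8%, against 7.08% of all genes tested). ASNS, asparagine synthetase, measured 41.2 ± 5.21 CPM in PBS and 48.4 ± 6.21 CPM in A2M* tumours (log2 fold change 0.23, edgeR adjusted p = 0.698). STC2, a secreted glycoprotein, measured 227.5 ± 53.4 and 164.6 ± 38.7 CPM (log2 fold change -0.47, edgeR adjusted p = 0.643). PPP1R15A, which reverses the phosphorylation of eIF2 alpha, had a log2 fold change of -0.36 (SE 0.173, edgeR adjusted p = 0.710, and -0.17 without PBS tumour PC3_tumor_125), and the pseudokinase TRIB3 one of -0.11 (SE 0.092). The ATF4 targets named here therefore lay on both sides of 0.

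Much of the spread lay between tumours of the same group, and 2 A2M* tumours held most of the highest values. HSPA5, HSP90B1, CALR, CANX and PDIA4 were highest in A2M* tumour PC3_tumor_131, where 14.4% of all genes tested were highest. DNAJB9, HERPUD1 and XBP1 were highest in A2M* tumour PC3_tumor_128, where 6.60% of all genes were. Without PC3_tumor_128, the Pearson r was 0.106 for HERPUD1 and XBP1, 0.233 for DNAJB9 and XBP1, and 0.446 for DNAJB9 and HERPUD1. Without PC3_tumor_131, the r of the first group of genes with HSPA5 lay between 0.145 (CALR) and 0.683 (HSP90B1). The other pairs of that group then had r between 0.310 (CANX and PDIA4) and 0.907 (HSP90B1 and CANX). Whether the genes that share a highest tumour vary as a set was not tested. In PC3_tumor_128 all 10 genes lay above the median of the other tumours, against 49.1% of all genes tested. In PC3_tumor_131, 6 of the 10 did, against 49.5% of all genes, and ATF4 was at its lowest there with 284.9 CPM. HSPA5 in PC3_tumor_131 was 1.57 times the median of the other tumours, and DNAJB9 in PC3_tumor_128 was 1.59 times it. PC3_tumor_128 had the lowest sum of stroma and immune markers (370.8 RPM, most of it COL1A1) and 33223999 counts. The part of these in its levels was not tested.

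**Figure D4:**
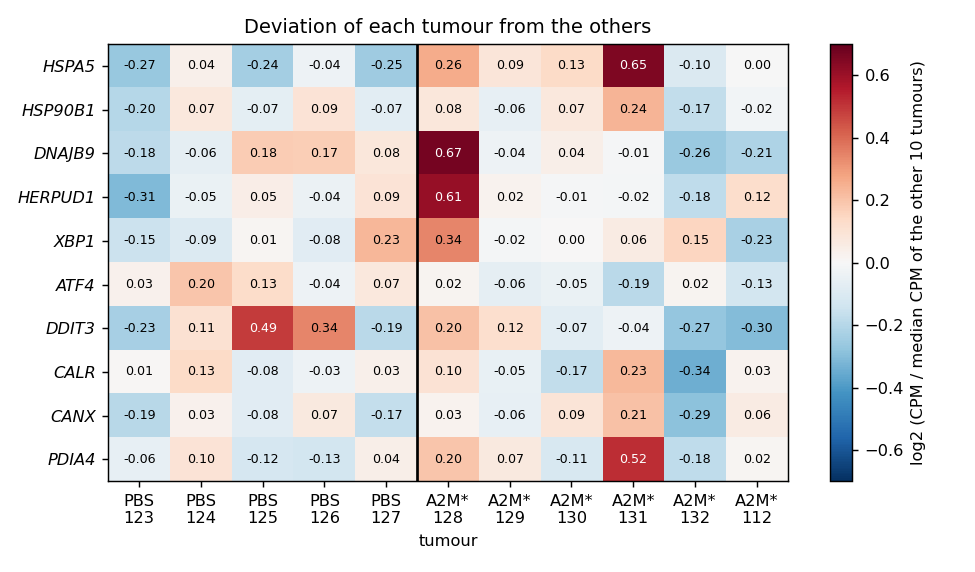
Log2 ratio of the CPM of each tumour (columns, 5 PBS left and 6 A2M* right of the line) to the median of the other 10 tumours for each gene (rows), red for higher and blue for lower. PC3_tumor_131 is highest for HSPA5 and the 4 other chaperone and isomerase genes, and PC3_tumor_128 for DNAJB9, HERPUD1 and XBP1.

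The other 9 genes were compared with HSPA5 across the 11 tumours in log2 CPM, with p from 100000 permutations and adjusted over the 9 relations. HSP90B1 followed HSPA5 most closely (Pearson r = 0.834, permutation p = 0.00179, adjusted p = 0.0161, and Spearman rho = 0.791, permutation adjusted p = 0.0504). PDIA4 (r = 0.828, permutation adjusted p = 0.0209, rho = 0.600, permutation adjusted p = 0.166) and CANX (r = 0.760, permutation adjusted p = 0.0209, rho = 0.736, permutation adjusted p = 0.0570) were next. Without the 2 tumours farthest from its median, A2M* tumour PC3_tumor_131 and PBS tumour PC3_tumor_123, r was 0.573, 0.509 and 0.552 for HSP90B1, PDIA4 and CANX (permutation adjusted p = 0.368 for each). Without PC3_tumor_131 alone, r was 0.683 for HSP90B1, 0.491 for PDIA4 and 0.629 for CANX (permutation adjusted p = 0.158, 0.289 and 0.158). Without PC3_tumor_123 alone, r was 0.814, 0.844 and 0.723 (permutation adjusted p = 0.0370, 0.0370 and 0.0769). The permutation adjusted p was also above 0.05 for CANX without PBS tumour PC3_tumor_127 (0.0572) and for PDIA4 without A2M* tumour PC3_tumor_128 (0.0911). Within the 6 A2M* tumours, PC3_tumor_131 included, r was 0.939 for HSP90B1 and 0.949 for PDIA4 (exact permutation adjusted p = 0.0375 and 0.0438), and rho was 0.943 and 0.829 (exact permutation adjusted p = 0.15 and 0.175). After the group means were taken out, r was 0.901 for HSP90B1 and 0.779 for CALR (permutation adjusted p = 0.00208 and 0.0458), and rho was 0.945 and 0.482 (permutation adjusted p = 0.00208 and 0.272). In the same residuals r was 0.854 for PDIA4 and 0.797 for CANX (permutation adjusted p = 0.0445 and 0.0458), and rho was 0.545 and 0.836 (permutation adjusted p = 0.204 and 0.0198). No correlation was computed within the 5 PBS tumours.

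ATF4 had a negative coefficient with HSPA5 (r = -0.613, rho = -0.555), with permutation adjusted p = 0.108 and 0.184. On log2(RPKM + 0.1) its rho was -0.727 (permutation adjusted p = 0.0429) and its r -0.607 (permutation adjusted p = 0.111). Without A2M* tumour PC3_tumor_131 its r was -0.317, and without PBS tumour PC3_tumor_124 it was -0.773 (permutation adjusted p = 0.0229). CALR (r = 0.495, rho = 0.336, permutation adjusted p = 0.230 and 0.563) did not pass over the 11 tumours. HERPUD1 (r = 0.345), DNAJB9 (r = 0.254), XBP1 (r = 0.189) and DDIT3 (r = 0.05) had the weakest relations to HSPA5, with rho between 0.191 and 0.282 and permutation adjusted p between 0.366 and 0.893 for r and 0.578 for rho. As a description without a test, chosen after the value had been seen, DNAJB9 and HERPUD1 had r = 0.840 (0.446 without A2M* tumour PC3_tumor_128). Without that tumour DNAJB9 had r = 0.827 with DDIT3. HSP90B1 and CANX had r = 0.934 (0.907 without A2M* tumour PC3_tumor_131).

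**Figure D5:**
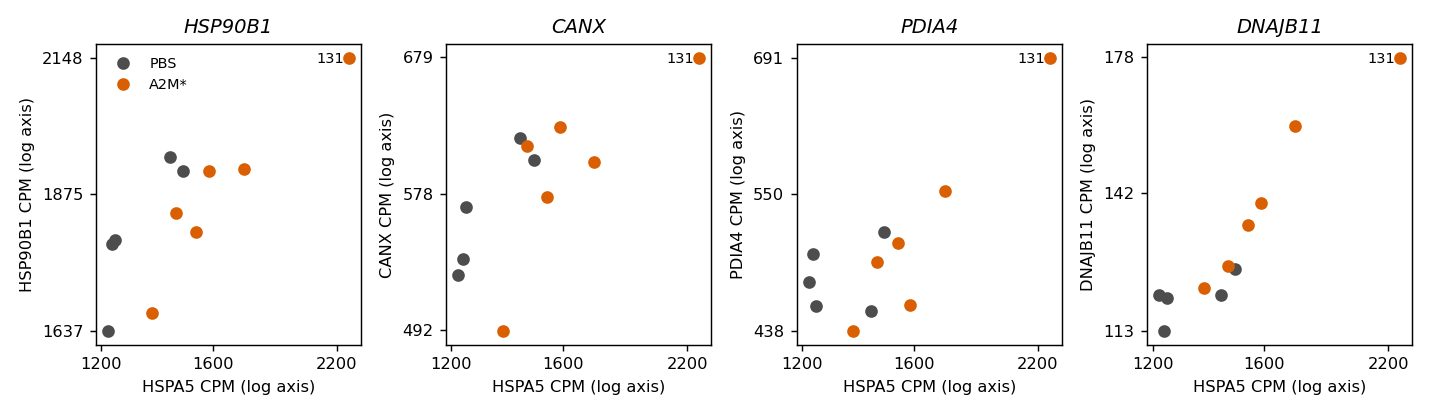
CPM of HSP90B1, CANX, PDIA4 and DNAJB11 (y axes, log scale) against HSPA5 (x axis, log scale), 1 point per PBS (grey) or A2M* (orange) tumour, with PC3_tumor_131 marked. PC3_tumor_131 lies at the upper end in every panel, and without it r with HSPA5 is 0.683 for HSP90B1 and 0.897 for DNAJB11.

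Among 14963 tested genes (mean log2 CPM not below 0), the gene most like HSPA5 over the 11 tumours was AHCYL2 (r = 0.958, and 0.905 without PC3_tumor_131). DNAJB11 was next (r = 0.953, and 0.897 without PC3_tumor_131), followed by MPHOSPH10 (0.941), a factor of ribosomal RNA processing, ZCCHC7 (0.937) and UBQLN2 (0.928), a ubiquitin-binding shuttle protein. Of the pathway lists, HYOU1, the large HSP70-like partner of GRP78, held rank 19 (r = 0.891) and DNAJC3 rank 50 (r = 0.847), both chosen after their values had been seen. Other genes of the lists lay at the opposite end, with r = -0.746 for STC2 (rank 14696), -0.542 for P4HB (rank 13330), -0.426 for ERO1L (rank 12098) and -0.283 for the isomerase TXNDC5 (rank 10565, chosen after its value had been seen). HSP90B1 held rank 70 and PDIA4 rank 78, whereas DDIT3 held rank 6910. These coefficients describe likeness over tumours of which PC3_tumor_131 is an extreme point, and genes with a shared library and scaling are not independent.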

How the data were processed

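Reads were sorted into human and mouse with xenome, mapped to hg19 with TopHat and counted on RefSeq genes with featureCounts by the authors, and the deposited counts of human reads carry no normalization. The authors also deposited RPM, each count scaled by the tumour's total (checked against the counts, largest difference 4.99e-07), and RPKM, RPM divided by exon length. Tumours were grouped by the labelled treatment, without covariates. Counts were filtered with filterByExpr, TMM-normalised and tested across 16630 genes by edgeR (version 4.0.16, R 4.3.3) with its quasi-likelihood test, Benjamini-Hochberg adjustment and a threshold of 0.01. The common biological coefficient of variation was 13.9%. Correlations used log2 CPM with a prior count of 2. The steps were tested on simulated data. No library was a copy of another (over 55 pairs, chi-square per degree of freedom from 8.73 up). A count of 3 equalled 0.0836 to 0.177 RPM. The sources used here do not link each sequenced tumour to its mouse. With 1 library per tumour, the p-values set group differences against the spread between these tumours.

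The 10 genes and the pathway lists were chosen with earlier results of these data known. Named besides them were HSPA8, up to 3 genes per list with the smallest p and up to 2 with the highest mean CPM, and the 5 genes most like HSPA5. Positions are from GENCODE mapped to GRCh37, and promoters from RefSeq on GRCh38.p14, with the first entry per gene. Alternatives were other scalings and filters, DESeq2 1.42.0, limma-voom (limma 3.58.1), limma on log2(RPKM + 0.1), other edgeR tests and fits without 1 tumour. Mouse reads were not analysed here.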

Additional observations from a re-analysis of the deposited data

Results flagged for a closer look

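In A2M* tumour PC3_tumor_128, DNAJB9 measured 81.4 CPM, and the next highest of the group 52.7 CPM, a gap of 0.758 of the group's range where Dixon's critical value for 6 samples is 0.625. HERPUD1 measured 146.3 CPM in the same tumour, and the next highest 104.4 CPM, a gap of 0.688 of the range. These were 2 of 24 groups of values searched, and chance alone flags about 1 in 20.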

How the results depend on the processing

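No paired analysis was possible because the groups share no tumour numbers. No setting or left-out tumour brought any of the 10 genes past the adjusted threshold. Over all genes, 1 gene passed with DESeq2, with the exact test and with the likelihood ratio test of edgeR, and 241 genes stood at an unadjusted p no higher than 0.01 by edgeR and DESeq2 alike. The log2 fold changes of the 10 genes kept their sign in 99 of 100 other fits, the exception being CALR with library size alone (0.0069), and in 107 fits without 1 tumour but not in 3, where DNAJB9 ranged from -0.12 to 0.086 and CALR from -0.089 to 0.017. MBTPS1 turned to 0.0051 with upper quartile factors, 0.036 with library size alone and 0.037 with limma on RPKM, and ranged from -0.034 to 0.023 without 1 tumour, as PDIA3 did from -0.019 to 0.066. With 1 tumour left out, the HSPA5 difference in log2 CPM ranged from 0.21 to 0.36 and the log2 ratio of HSPA5 to HSPA8 from -0.31 to -0.18. The correlation with HSPA5 ranged from 0.683 to 0.873 for HSP90B1, 0.629 to 0.860 for CANX, 0.491 to 0.886 for PDIA4, -0.773 to -0.317 for ATF4 (past the threshold without PBS tumour PC3_tumor_124) and -0.073 to 0.339 for DDIT3. Without the 2 tumours farthest from the HSPA5 median it was 0.573 for HSP90B1, 0.552 for CANX, 0.509 for PDIA4 and -0.0053 for DDIT3. In A2M* tumours only it was 0.774 for CANX, and 0.779 for CALR after the group means were taken out. Ordered by CPM instead of RPKM, 5 of the 10 genes kept their place, since CPM does not divide by length. The cause of the other changes was not tested. Each of the 10 genes had at least 581 counts in every tumour, and the number of tumours and the spread between them limit what could be detected.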
